A study of Mus musculus with 6 samples.

Results

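The transcription factors described here are Snai1, Snai2, Zeb1, Zeb2, Twist1, Twist2, Prrx1 and Tcf4, the DNA-binding proteins best known for driving epithelial-mesenchymal transition (EMT). They were chosen by name: the 21 probes whose platform gene symbol is one of these 8, of 45281 probes and 19057 named genes on the array. All 8 genes were measurable, each with at least 1 probe detected on all 6 arrays. The samples were 21EM15 cells, an epithelial line derived from the mouse lens. The 3 knockdown samples carried a lentivirus that expresses a short hairpin RNA (shRNA) directed at Tdrd7, which encodes a Tudor domain protein found in RNA granules of the cytoplasm. The 3 control samples carried a lentivirus with GFP, and their labels name no shRNA, so effects of the constructs and of reduced Tdrd7 cannot be told apart. All samples share the same cell line and a lentiviral construct, and it is not stated whether the replicates were grown as separate cultures. The p-values therefore reflect the scatter among these 6 samples, part or all of which may be technical.

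In EMT, epithelial cells lose their junctions and polarity and take on the shape, matrix and motility of mesenchymal cells. Snail (Snai1, Snai2) and ZEB (Zeb1, Zeb2) proteins are zinc finger repressors that bind E-boxes, short DNA elements in the promoters of E-cadherin and other epithelial genes, and recruit co-repressors there. Twist proteins are basic helix-loop-helix (bHLH) factors that pair with E proteins such as Tcf4, while Prrx1 is a homeobox factor of embryonic mesenchyme. In the lens, EMT of the epithelium is known from fibrotic forms of cataract.

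The E-box letters that Snail and ZEB proteins prefer, CAGGTG or its reverse complement CACCTG, were searched in the 250 bases before each RefSeq transcription start (build GRCm38.p6). The sequences below are shown because they carry these letters, in capitals, in genes that the results refer to: the epithelial genes Crb3, Epcam and Krt8, and Snai1 itself.
Crb3 (chr17:57061951-57062200, plus strand): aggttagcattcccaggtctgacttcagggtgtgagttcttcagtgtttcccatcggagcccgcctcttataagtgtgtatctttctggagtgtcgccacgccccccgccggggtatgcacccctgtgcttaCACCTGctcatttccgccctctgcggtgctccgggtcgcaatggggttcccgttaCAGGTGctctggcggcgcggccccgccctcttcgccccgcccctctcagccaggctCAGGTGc
Epcam (chr17:87635729-87635978, plus strand): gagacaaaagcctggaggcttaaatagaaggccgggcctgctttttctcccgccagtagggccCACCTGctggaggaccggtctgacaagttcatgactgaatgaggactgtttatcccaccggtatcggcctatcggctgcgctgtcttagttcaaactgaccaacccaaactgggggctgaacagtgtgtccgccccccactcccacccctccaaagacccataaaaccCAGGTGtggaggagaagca
Krt8 (chr15:102004343-102004592, minus strand): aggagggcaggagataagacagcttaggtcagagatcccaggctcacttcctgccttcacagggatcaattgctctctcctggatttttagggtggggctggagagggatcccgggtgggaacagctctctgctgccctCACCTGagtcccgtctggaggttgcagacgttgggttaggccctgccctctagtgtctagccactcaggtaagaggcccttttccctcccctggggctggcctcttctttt
Snai1 (chr2:167537945-167538194, plus strand): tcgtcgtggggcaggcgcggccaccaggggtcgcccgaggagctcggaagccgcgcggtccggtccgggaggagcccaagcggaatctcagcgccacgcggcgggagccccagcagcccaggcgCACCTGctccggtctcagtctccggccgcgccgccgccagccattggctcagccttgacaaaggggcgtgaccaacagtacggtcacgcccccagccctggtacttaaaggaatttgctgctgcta
Crb3, a polarity protein gene, has 3 such boxes, and Epcam, an epithelial adhesion gene, has 2. Krt8, a keratin gene of simple epithelia, and Snai1 have 1 each. The E-cadherin gene Cdh1 had no promoter sequence and was not searched. Of the 25 genes with a promoter sequence on a list of epithelial junction genes, 16 had the letters in at least 1 window. That is 64% of them, against 19.4% of all 27025 genes with a sequence. Of 17 genes with a sequence on a list of mesenchymal genes, 0 had these letters. In this search Ccn2 and Ccn1 were looked up only under their older symbols Ctgf and Cyr61. The epithelial list was drawn up from genes known as targets of these factors, so its share is not independent evidence. Of the 8 factors, 5 had a promoter sequence in the table used, and Snai1 was the only 1 of them with these letters. A match describes the letters and not binding.

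Values below are array signals after background correction and quantile normalization on a log2 scale, in which 1 unit is a 2-fold difference. Differences are knockdown minus control from a limma fit of all 9200 genes tested, with their standard error (SE), and p-values are adjusted over those genes. Arrays carry the running numbers of the scanner table, 4 to 6 for knockdown and 1 to 3 for control. Levels of different genes come from different probes and were not set against each other. Between 37.2% and 38.8% of probes were detected per array, and array 4 stood apart: its log2 values correlated with those of the remaining arrays at 0.957 on average, and the mean for each of the other 5 was 0.971 to 0.976. Tdrd7 lay at 7.67, 7.46 and 8.42 on the knockdown arrays, against 9.38, 9.80 and 9.93 on the control arrays, a difference of -1.85 ± 0.28 (SE, n = 3 each) that did not pass over all genes (limma adjusted p = 0.76).

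None of the 8 factors passed an adjusted p of 0.05 in limma. The same was true of all 9200 genes (0%), and each member had an adjusted p of 0.998. With each of the 12 member probes detected on all 6 arrays fitted by itself, 0 passed, against 0.00612% of all probes fitted. An unadjusted p under 0.05 was reached by 0 of 8 members and by 3.29% of all genes. Zeb1, Twist1, Twist2, Snai1 and Snai2 lay above control on average, and Zeb2, Prrx1 and Tcf4 below it. The differences ran from -0.43 to 0.33 log2 units with a median of 0.12, where the median over all genes was 0.01. The knockdown arrays lay entirely apart from the control arrays for 1 of 8 members, Zeb2, which was lower; over all genes that held for 7.83%, and for 3.5% in the downward direction.

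**Figure D1:**
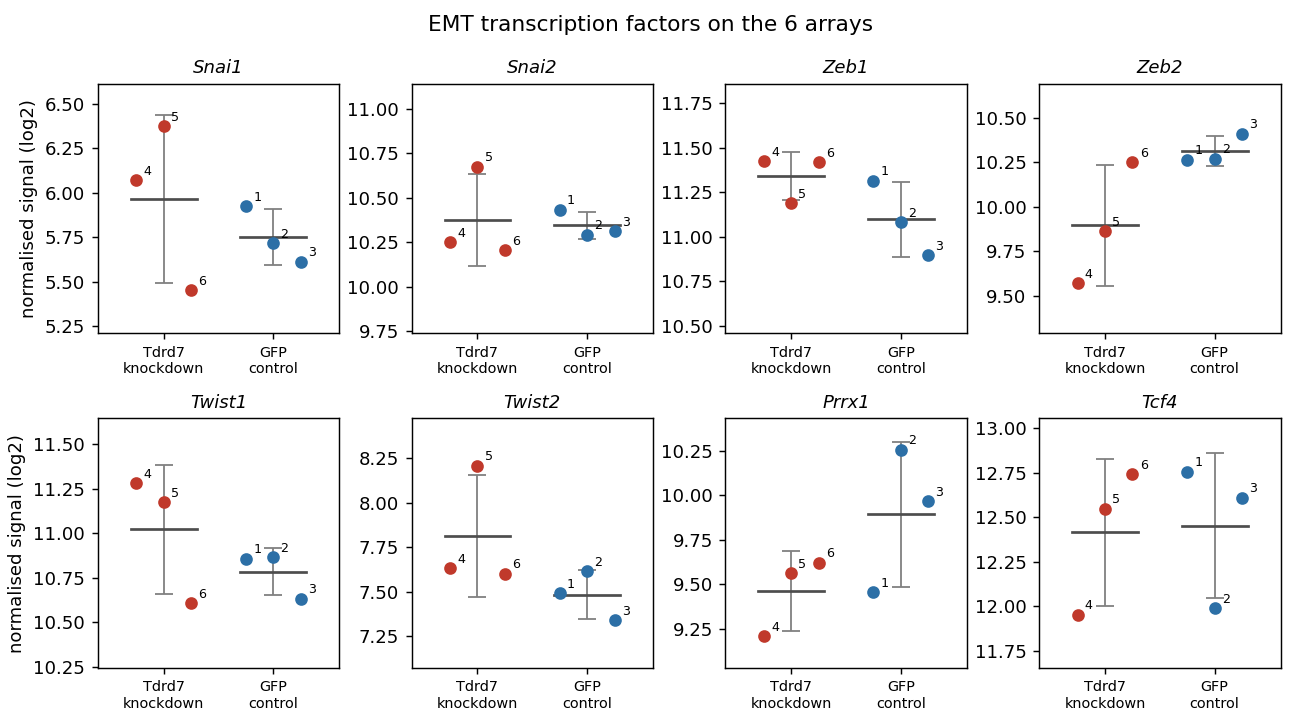
Normalised log2 signal of the brightest detected probe of each factor, with knockdown arrays (red) left of control arrays (blue), array numbers beside the points, and mean ± SD (n = 3 each). Each panel spans the same height in log2 units. The knockdown points of Zeb2 all lie below its control points, and the groups overlap for the other 7 factors.

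Zeb2, a ZEB repressor also known from neural crest development, had values of 9.57, 9.86 and 10.25 on knockdown arrays 4 to 6, against 10.26, 10.27 and 10.41 on control arrays 1 to 3. The 3 control arrays lay close together and the knockdown arrays spread below them. The highest knockdown array and the lowest control array were only 0.014 log2 units apart. The difference was -0.42 ± 0.21 (SE, n = 3 each), with a 95% confidence interval from -0.90 to 0.07 and an unadjusted limma p of 0.081 (adjusted p = 0.998). In the authors' processed intensities, the same probe gave 772, 985 and 1208 in knockdown replicates 1 to 3, against 1233, 1267 and 1357 in control replicates 1 to 3, again with no overlap. The groups stayed apart under quantile normalization with each of the 3 background settings tried, under 75th percentile scaling and in the authors' values, and overlapped without normalization between arrays. Without knockdown array 4, the array that stood apart over all genes, the difference was -0.26.

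The array holds 5 Zeb2 probes, and they did not all speak to this difference. Besides the probe above, a second was detected on all 6 arrays, close to background, with scanner signals of 109, 101 and 97.9 in knockdown and 104, 95.6 and 105 in control. Its difference was 0.02 ± 0.19 (SE), so the lower values rest on 1 probe. The other 3 probes were detected on no array.

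Zeb1, the paralogue of Zeb2 and a direct repressor of E-cadherin, lay at 11.42, 11.19 and 11.42 on the knockdown arrays, against 11.31, 11.08 and 10.90 on the control arrays. Knockdown array 5 lay below control array 1, so the groups overlapped. The difference was 0.25 ± 0.18 (SE, n = 3 each; interval -0.18 to 0.67). Under 75th percentile scaling the groups no longer overlapped, with knockdown higher, whereas they overlapped under quantile normalization, without normalization between arrays and in the authors' values. Without control array 3 the difference was 0.14. Zeb1 and Zeb2 thus had estimates of opposite sign, and each interval included 0. A second Zeb1 probe was detected on no array.

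Snai1, the founding member of the Snail family, was close to background, with scanner signals of 134, 145 and 88.5 on the knockdown arrays and 128, 102 and 99.995 on the control arrays. Its normalised values were 6.07, 6.37 and 5.45 in knockdown, against 5.92, 5.72 and 5.61 in control. Knockdown arrays 4 and 5 lay above every control array and array 6 below every one. The difference of 0.21 ± 0.25 (SE, n = 3 each; interval -0.37 to 0.80) was 0.01 without array 5 and 0.48 without array 6. Near background the offset of the correction understates fold changes, and the second Snai1 probe was detected on no array.

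Snai2, which encodes Slug and is expressed in neural crest and many mesenchymal cells, was clearly detected on all 6 arrays. It lay at 10.25, 10.67 and 10.21 in knockdown, against 10.43, 10.29 and 10.31 in control. The control arrays fell inside the range of the knockdown arrays. The difference was 0.03 ± 0.19 (SE, n = 3 each), with an interval from -0.41 to 0.47. That interval still admits a change of either sign, and the estimate was -0.12 without knockdown array 5.

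Twist1, the bHLH factor mutated in a human craniosynostosis syndrome, had 11.28, 11.18 and 10.61 on the knockdown arrays, against 10.86, 10.87 and 10.63 on the control arrays. Array 6 was the lowest of all 6 arrays, while arrays 4 and 5 were the highest. The difference was 0.24 ± 0.22 (SE, n = 3 each; interval -0.27 to 0.74), and it was 0.11 without array 4 and 0.44 without array 6. Twist2, its close relative in dermal mesenchyme, had 7.63, 8.21 and 7.60, against 7.49, 7.62 and 7.34 in control. Its knockdown array 5 stood above the rest, and control array 2 reached just above knockdown array 6. The difference was 0.33 ± 0.22 (SE, n = 3 each; interval -0.17 to 0.83), the largest positive estimate among the 8, and 0.13 without array 5. For these 2 genes the array has a single probe each.

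Prrx1 was lower by estimate, at 9.21, 9.56 and 9.62 on the knockdown arrays, against 9.46, 10.26 and 9.97 on the control arrays. Control array 1 lay within the knockdown range, and the other 2 control arrays lay above it. The difference was -0.43 ± 0.24 (SE, n = 3 each), with an interval from -0.99 to 0.13 and an unadjusted limma p of 0.12 (adjusted p = 0.998). It was -0.65 without control array 1 and -0.25 without control array 2.

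Of the 6 Prrx1 probes, 4 were detected on all 6 arrays, and 3 of these gave like values. Besides the brightest probe, these were a probe assigned to the RefSeq transcript NM_011127, at -0.41 ± 0.25 (SE), and another assigned to NM_175686, at -0.31 ± 0.23 (SE). The NM_175686 assignment also holds for the brightest probe. Which transcript variants each probe reads was not tested. The 3 probes read the same 6 RNA samples and are no independent replicates. The fourth probe, also assigned to NM_175686 and dimmer, had scanner signals of 201, 200 and 140 in knockdown and 168, 202 and 150 in control, with a difference of 0.03 ± 0.26 (SE). Another probe was detected on 1 of 3 knockdown arrays and 2 of 3 control arrays and did not enter the fit. The last was detected on no array.

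**Figure D2:**
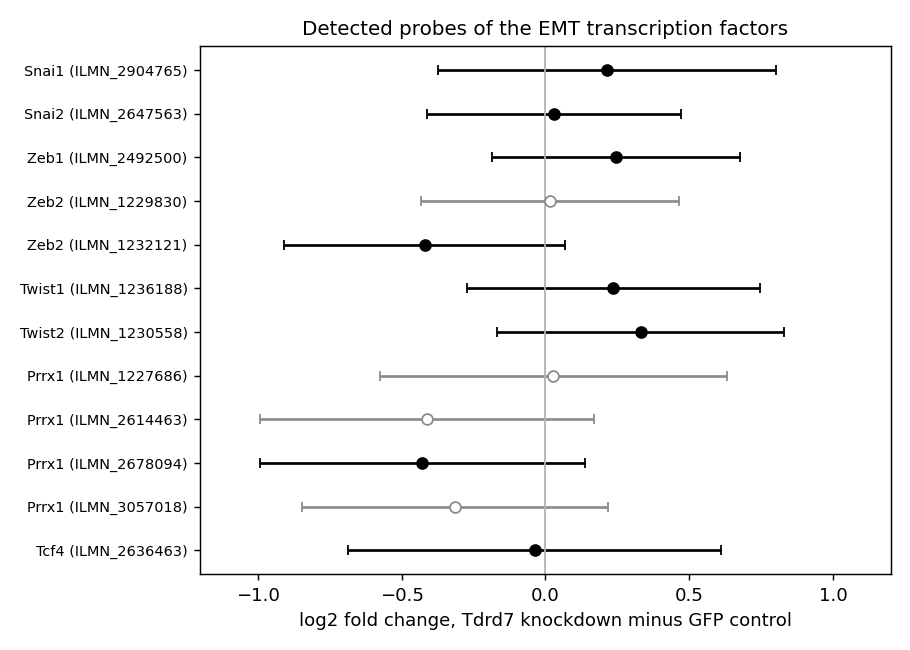
Log2 fold change (knockdown minus control) with 95% confidence interval for the 12 probes of the 8 factors detected on all 6 arrays, from the fit of each probe by itself. Filled points are the brightest probe of each gene and open points its other probes among the 12. Every interval includes 0; 3 of 4 Prrx1 probes lie between -0.43 and -0.31 and the fourth at 0.03.

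Tcf4, here the E protein also called E2-2 and not the Wnt effector Tcf7l2, lay at 11.95, 12.55 and 12.74 in knockdown, against 12.76, 11.99 and 12.61 in control. Each group held a low array, number 4 in knockdown and number 2 in control, and the others lay close together. The difference was -0.04 ± 0.28 (SE, n = 3 each), with an interval from -0.69 to 0.61. The other 2 Tcf4 probes were detected on no array.

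The factors did not move as a block from array to array. Relative to each gene's own mean over the 6 arrays, 3 of 8 factors lay above and 5 below on knockdown array 4, 5 above and 3 below on array 5, and 3 above and 5 below on array 6. On array 4 the deviations were 0.38 for Twist1 and 0.21 for Snai1, while Zeb2, Tcf4 and Prrx1 lay at -0.53, -0.48 and -0.47. On array 5 Twist2 was at 0.56, Snai1 at 0.52 and Snai2 at 0.31, and Zeb2 at -0.24. The range over the 6 arrays was 0.47 log2 units for Snai2 and 1.05 for Prrx1, the narrowest and widest of the 8, where the median gene tested had 0.72. The 3 genes with the array profile nearest to that of Prrx1 were Gpt, Dusp7 and Pomt1, at root mean square distances of 0.069, 0.081 and 0.096 log2 units over the 6 arrays. They were picked as the smallest distances among all genes tested, over only 6 arrays. Whether they vary together with Prrx1 was not tested.

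**Figure D3:**
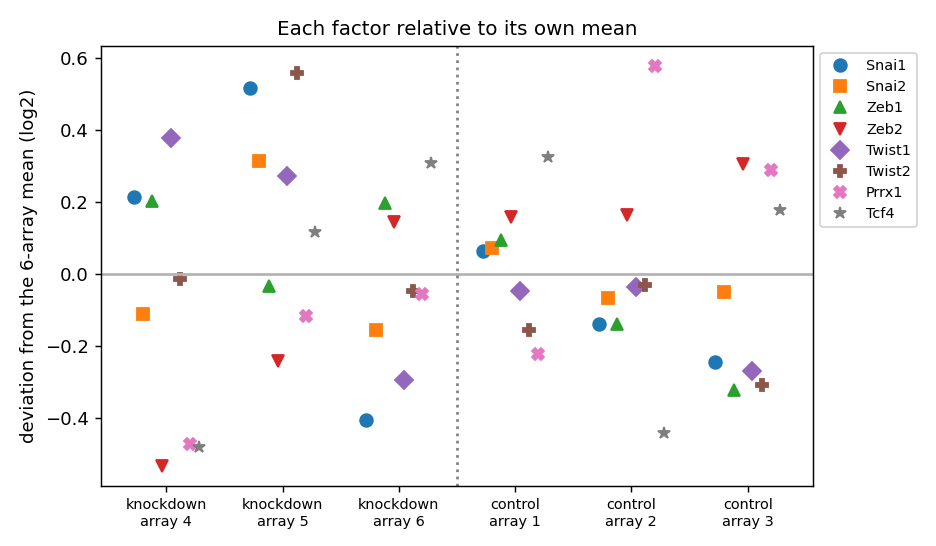
Deviation of each factor from its own 6-array mean, in log2 units, with knockdown arrays left of the dotted line and control arrays right of it. Zeb2 lies lowest on knockdown array 4 (-0.53), and Prrx1 highest on control array 2 (0.58).

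Partners and relatives of the factors were measured on the same arrays. Of 13 family relatives on the array, 6 could be tested, and 0 of 6 passed in limma; 4 lay above and 2 below control, with a median of 0.05. The E protein gene Tcf3, a dimer partner of Twist, was lower at 4.91, 5.40 and 5.20 in knockdown against 5.90, 5.90 and 5.55 in control. Its difference was -0.61 ± 0.20 (SE), but it was detected on 1 of the 3 knockdown arrays and on all 3 control arrays. Tcf3 thus entered through the group where it was higher, so the lack of overlap cannot be read as a result. Its other probe overlapped, with scanner signals of 87.2, 123 and 88.0 in knockdown and 107, 87.2 and 100.3 in control. The E protein gene Tcf12 was at -0.19 ± 0.20 (SE), Zfhx4 at 0.16 ± 0.21 and the bHLH gene Scx at 0.15 ± 0.28. Id proteins bind E proteins and block their pairing. Id1 lay at -0.63 ± 0.26 (SE) without overlap and Id3 at -0.47 ± 0.21, while Id2 lay at 0.17 ± 0.29. Id4 was detected on all 3 knockdown arrays and 1 of 3 control arrays, so it entered through the group where it was higher, and its value of 0.23 ± 0.28 is set against a level near background. None of the 4 passed (adjusted p = 0.998 in limma).

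Other transcription factors linked to EMT had 19 tested genes of 27 on the array. Of these, 14 lay above and 5 below control, with a median of 0.23, and 0 passed in limma. Over all genes tested 52.3% lay above control. The forkhead genes Foxf2 and Foxc2 were at 0.66 ± 0.19 (SE) and 0.65 ± 0.30, and the T-box gene Tbx3 at 0.61 ± 0.24. Foxf2 gave 6.93, 6.65 and 6.56 in knockdown, against 6.26, 6.04 and 5.86 in control, so its groups did not overlap. These control values lay near background, as did those of Foxc2 on control arrays 2 and 3, at 6.10 and 5.62. The groups of Foxc2 overlapped. Tbx3 did not overlap either, at 8.13, 7.81 and 7.99 in knockdown against 7.59, 7.61 and 6.89 in control. Etv5, an ETS factor downstream of FGF signals, was at -0.87 ± 0.41, with 6.07 on array 4 and 7.78 and 7.35 on arrays 5 and 6, against 8.18, 7.63 and 8.01 in control.

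Epithelial genes of the kind these factors are known to repress in other cells were mostly below detection in both groups. Of 39 epithelial junction genes on the array, 25 were detected on no array by any probe, among them Epcam, Crb3, Ocln, Krt18 and Krt19. Of these 39 genes 11 could be tested, where 9200 of all 19057 named genes on the array could be. Cdh1, which encodes E-cadherin, had 2 probes, and the brighter gave scanner signals of 100.1, 98.9 and 80.7 in knockdown and 101, 83.4 and 99.4 in control. It was detected on 0 of 3 knockdown arrays and 2 of 3 control arrays, so its level was not separable from background. Of the junction genes with promoter sequence that are on the array, 11 of 16 with the E-box letters and 5 of 8 without them were detected on no array.

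The 11 epithelial junction genes that could be tested had a median difference of 0.09, with 7 above and 4 below control, and 0 passed in limma. That median is the value of Cldn7, detected on all 3 knockdown arrays and 2 of 3 control arrays. Cldn7 thus entered through the group where it was higher. With detection required on all 6 arrays the median was 0.06. Itgb4, an integrin of hemidesmosomes, lay at -0.86 ± 0.18 (SE) and the plakophilin gene Pkp2 at 0.52 ± 0.18, both without overlap and in opposite directions. The desmoglein gene Dsg2 was at 0.24 ± 0.17 and Krt8 at 0.26 ± 0.19, with overlapping groups and both near background. Of 15 genes for regulators of epithelial identity, 10 were detected on no array, among them Esrp1, Esrp2, Grhl2, Ovol1 and Ovol2, which oppose EMT in other epithelia. The 3 that could be tested were Klf4 at 0.07 ± 0.38 (SE), Klf5 at -0.05 ± 0.23 and Gata3 at 0.35 ± 0.24. Gata3 lay near background and was detected on all 3 knockdown arrays and 2 of 3 control arrays, so it entered through the group where it was higher.

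Mesenchymal genes were nearly all measurable. Of 35 on the array, 33 could be tested, against 9200 of all 19057 named genes on the array. Of these 33, 23 lay above and 10 below control, with a median of 0.12, and 0 passed in limma. Vim, which encodes vimentin, lay at 15.21, 14.36 and 14.74 in knockdown against 14.61, 14.66 and 14.89 in control, a difference of 0.05 ± 0.24 (SE). Cdh2, which encodes N-cadherin and is normal in lens epithelium, was at 5.40, 5.49 and 5.43 in knockdown against 5.46, 6.08 and 6.18 in control, a difference of -0.47 ± 0.22. The genes of the list with the lowest unadjusted p were the matrix genes Postn at 1.12 ± 0.39, Col5a2 at 1.19 ± 0.42, Col3a1 at 1.61 ± 0.61 and Col1a1 at 0.73 ± 0.31. The groups did not overlap for Postn and overlapped for Col5a2, Col3a1 and Col1a1. Col3a1 lay at 10.78, 8.59 and 9.59 on knockdown arrays 4 to 6, against 8.73, 6.98 and 8.41 on control arrays 1 to 3. The median of the tested list relative to each gene's mean was 0.40 on array 4, -0.18 on array 5 and 0.15 on array 6. The median difference of the list was 0.04 without array 4 and 0.02 without control array 2, and 0.31 without array 5 and 0.32 without control array 1.

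**Figure D4:**
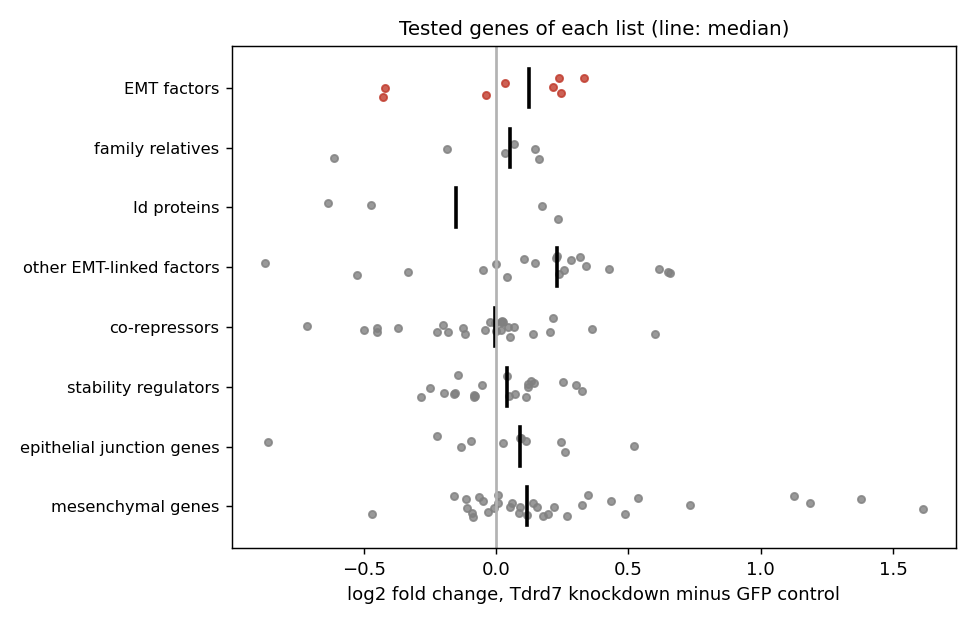
Log2 fold change (knockdown minus control) of each tested gene, for the 8 EMT factors (top row, red) and for lists of related genes. The median of each row is a black line. The list of epithelial regulators and the marker lists of lens and of other cells are not drawn. The medians shown lie between -0.15 for Id proteins and 0.23 for other EMT-linked factors, and no gene shown passed the test.

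Markers of the line and of other cells were read beside these results. Of 20 lens genes on the array, 10 could be tested, among them Pax6, Sox2, Prox1 and Cryab, while Foxe3 and Pitx3 were detected on no array. Of these 10 genes 3 lay above and 7 below control, with a median of -0.19 and 0 past the limma threshold. Among them were Pax6 at 1.00 ± 0.33 (SE) and Sox2 at -0.50 ± 0.22, Sox2 without overlap. Pax6 lay at 7.22, 6.73 and 6.51 in knockdown against 6.53, 5.47 and 5.45 in control. Its groups overlapped, and control arrays 2 and 3 lay near background. Of 11 genes of fibroblasts and mesenchyme, 8 could be tested and Col1a2, Lum and Fap were detected on no array. All 8 lay above control by estimate, with a median of 0.27 and 0 past the threshold, and 4 of them (Col1a1, Pdgfra, Thy1 and Pdgfrb) also belong to the mesenchymal list. Relative to each gene's mean, the median of these 8 was 0.86, -0.23 and 0.07 on knockdown arrays 4 to 6, against 0.16, -0.51 and -0.21 on control arrays 1 to 3, so knockdown array 4 was the highest and arrays 5 and 6 lay within the control range. The summed linear signal of that list was 20200 to 33550 in knockdown and 18070 to 24470 in control. Of 8 endothelial genes 6 were detected on no array, Pecam1 and Cdh5 included, and the summed background-corrected signal of all 8 was 229 to 251 in knockdown and 319 to 417 in control. The only one tested was Ramp2, a receptor accessory protein gene not limited to endothelium, at 7.29 to 7.57 in knockdown and 7.92 to 8.45 in control. The groups of Ramp2 did not overlap, and it did not pass the test. Of 6 leukocyte genes 5 were detected on no array, Ptprc included, and the sum over all 6 was 84.9 to 97.9 in knockdown and 76.8 to 106 in control. The only one tested, Cd3e, lay near background and was detected on all 3 knockdown arrays and 2 of 3 control arrays. Fewer cells of a type and less RNA per cell cannot be told apart in these bulk samples, and the part of these markers in the results above was not tested.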

How the data were processed

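RNA from 3 Tdrd7 knockdown and 3 GFP control samples was hybridised to 1-colour Illumina bead arrays. Per the labels' protocols, spin-column RNA was DNase-treated and made into biotinylated cRNA. The deposited scanner table gives a linear intensity and a detection p-value per probe and array, per the file headers. A second deposited table holds the authors' processed intensity values, made in a way not given in the sources used here. Scanner columns name the group but not the replicate, so they were used by group.

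Intensities were corrected, quantile normalized and logged with the neqc function (R 4.3.3, limma 3.58.1; offset 16, background from detection p). Probes with detection p under 0.05 on all 3 arrays of a group entered (16349 of 45281), and each of 9200 genes was represented by its brightest probe. By the platform annotation, 34885 probes have 1 gene symbol, 18 have several and 10378 have none. Groups were compared with lmFit and eBayes, with Benjamini-Hochberg adjustment over all genes and a threshold of 0.05. The number of arrays limits the precision.

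The named genes were all probes of the 8 factors, Tdrd7, Cdh1, Cdh2, Vim, Tcf3 and Tcf12, up to 4 tested genes per list with the lowest unadjusted p, and the 3 genes nearest in profile to a member whose arrays span over 1 log2 unit; other genes named stand for their list or were chosen after their values were seen. Members and lists were chosen with earlier results of these data known. The lists held family relatives, Id proteins, other EMT-linked factors, co-repressors, stability regulators, epithelial junction genes, epithelial regulators, mesenchymal genes, and markers of lens, fibroblasts, endothelium and leukocytes; 5 older symbols were updated through RefSeq synonyms. Alternatives were other background corrections and scalings, the processed table, other filters and probe rules, weighted arrays, a trended variance, and 1 array omitted at a time. Simulated data with known changes were used to test the fit. Plots were made in Python 3.11.15 with matplotlib 3.10.9.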

Additional observations from a re-analysis of the deposited data

How the results depend on the processing

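No member passed an adjusted p of 0.05 under any of the 18 alternatives, and Zeb1, Zeb2, Twist1, Twist2, Prrx1 and Snai1 kept the sign of their differences in all of them. Tcf4 changed sign without normalization between arrays (0.010) and with array weights (0.047), and it ranged from -0.27 to 0.19 when each array was left out in turn. In those same fits Snai2 ranged from -0.12 to 0.12, Zeb2 from -0.60 to -0.26, Prrx1 from -0.65 to -0.25, Zeb1 from 0.14 to 0.36, Twist1 from 0.11 to 0.44, Twist2 from 0.13 to 0.44 and Snai1 from 0.01 to 0.48. Tdrd7 stayed between -2.15 and -1.62 over all alternatives. The median of epithelial junction genes ranged from -0.083 without control array 2 to 0.13, and that of mesenchymal genes from 0.02 to 0.32. Averaging all probes of a gene that passed the detection filter put Zeb2 at -0.20 and Prrx1 at -0.28, since their dim probes then enter. The count of genes past the threshold was 0, and 1 of 16349 probes passed when every probe was fitted by itself (0.00612%). The number of genes with an unadjusted p under 0.05 was 303, and it ran from 98 without normalization between arrays to 814 with array weights. The cause was not tested. A fit with replicate number as a block was only possible on the processed table, as scanner columns carry no such number. With the replicate block Zeb2 was at -0.40 and Prrx1 at -0.43, unadjusted limma p 0.042 and 0.023, and 0 genes passed. In that fit 432 of 9200 genes had an unadjusted p under 0.05. Without the block the 2 p-values were 0.060 and 0.093, and 257 genes were under 0.05. Samples with the same number deviated from their group means with correlations of -0.10, 0.13 and 0.59. Of the 3 knockdown samples, 2 correlated best with their own number. With 3 samples per group this cannot settle whether samples were paired, and the pairing was not adopted in the main fit. Slide could not be fitted, as the files give none. Signal over background limits, among others, Snai1, Tcf3, Id4, Foxf2, Foxc2, Gata3, Cdh1, Cdh2, Krt8, Dsg2, Cldn7, Pax6 and the second Zeb2 probe.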

Other observations

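Machinery that acts with or on the EMT factors was measured too. Of 28 co-repressor genes on the array, 26 could be tested, with 12 above and 14 below control and a median of 0.00, and 0 passed in limma. Ezh2, the methyltransferase of Polycomb repressive complexes, lay at 7.97, 8.66 and 8.60 in knockdown, against 8.74, 9.30 and 9.33 in control, with no overlap and a difference of -0.72 ± 0.26 (SE). Rbbp4, a histone-binding subunit shared by several such complexes, was at -0.50 ± 0.21, and the Polycomb ligase gene Rnf2 at 0.36 ± 0.21. Limd1, of the Ajuba LIM family of Snail co-repressors, was at 0.60 ± 0.30, with 9.13 on array 4 and 8.04 and 8.07 on arrays 5 and 6, against 7.75, 7.73 and 7.95 in control. Its groups did not overlap, and array 4 lay well above arrays 5 and 6.

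Regulators of the stability or location of Snail proteins had 21 tested genes of 24 on the array, 11 above and 10 below control, with a median of 0.04 and 0 past the limma threshold. The F-box genes Fbxw7 and Fbxl5, which encode adaptors of ubiquitin ligases, lay at 0.30 ± 0.18 (SE) and -0.25 ± 0.20. The deubiquitinase gene Usp9x was at 0.32 ± 0.23 and the importin gene Kpna2 at -0.29 ± 0.27. Knockdown and control overlapped for all 4. Loxl3 and Lats1, also on this list, were detected on all 3 knockdown arrays and 2 of 3 control arrays. Both entered through the group where they were higher. Protein levels, at which Snail factors are largely controlled, were not measured.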
